A study of Mus musculus with 2 samples.

Results

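The cycling myeloid cells of these tumours are cells whose RNA held the transcripts of 4 genes made late in the division cycle together with transcripts of leukocytes. Top2a untangles chromosomes, Birc5 (survivin) guides their attachment to the spindle, Ube2c feeds mitotic proteins to the anaphase-promoting complex, and Cdk1 is the kinase that drives mitosis. A barcode with 2000 or more unique molecular identifiers (UMIs, each 1 captured transcript) and at most 10% mitochondrial UMIs was a member if these 4 genes together had 3 or more UMIs. It also needed 3 or more UMIs of the leukocyte genes Ptprc, Tyrobp and Fcer1g, and under 3 UMIs of the lymphocyte genes Nkg7 and Ctsw. Of 3173 cells past the depth and mitochondrial limits, 185 were members, 110 of 1958 in replicate 1 and 75 of 1215 in replicate 2. Members were thus chosen by their own UMI counts of these genes. They were split by lineage. The macrophage lineage (72 cells; 47 and 25 per library) had at least 0.3% of UMIs from the complement genes C1qa, C1qb and C1qc. The lineage of type 1 conventional dendritic cells (cDC1; 26 cells, 17 and 9) had 2 or more UMIs of Xcr1 and Clec9a and less C1q. The other myeloid cells (87; 46 and 41) passed neither gate. Resting cells, here those with 0 to 2 UMIs of the 4 genes, numbered 1632 (1061 and 571), 88 (49 and 39) and 963 (565 and 398) in the same order.

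Both libraries carry the same labels, so there is 1 group: CD11c-positive, wild-type (WT) myeloid cells from the microenvironment of tumours of PyMT mice on C57BL/6N. In PyMT mice a viral oncogene, polyoma middle T, drives mammary tumours. No treatment, age or sex is given, and nothing in the labels says whether the libraries came from separate animals. All comparisons are therefore between cell classes within libraries. Library is a block in the fits, which takes out level differences between the libraries. The p-values thus measure only how steady class differences were over these 2 libraries, and that spread may be technical. The files held 17369071 UMIs in replicate 1 and 13317214 in replicate 2, and no barcode was shared between members of the 2 libraries. Another 3 cycling cells lacked leukocyte genes and 7 had lymphocyte genes, and these were not members.

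Most tumour macrophages and dendritic cells are replenished from bone marrow progenitors, but both can also divide in tissue. In the S phase of the cycle a cell copies its DNA with the MCM helicase, DNA polymerases and an enlarged nucleotide supply. In G2 and mitosis it makes the kinases, kinesins and checkpoint proteins that condense and part the chromosomes. Macrophages depend on the receptor Csf1r for survival and growth, whereas conventional dendritic cells depend on Flt3.

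The promoters of the 4 genes are shown first because transcription in G2 and mitosis is commonly tied to 2 short motifs, the cell cycle homology region (searched as TTTGAA and TTCGAA) and the CCAAT box. Sequences are from RefSeq (GRCm38.p6), 5′ to 3′ on the gene's strand, and motif letters of either strand are in capitals. The stretch of Top2a (chr11:99024190-99024389, minus strand) ends 1 base before its transcription start and holds 4 homology-region and 5 CCAAT matches. That of Cdk1 (chr10:69352939-69353112, minus strand) ends 27 bases before the start and holds 1 and 2.
Top2a: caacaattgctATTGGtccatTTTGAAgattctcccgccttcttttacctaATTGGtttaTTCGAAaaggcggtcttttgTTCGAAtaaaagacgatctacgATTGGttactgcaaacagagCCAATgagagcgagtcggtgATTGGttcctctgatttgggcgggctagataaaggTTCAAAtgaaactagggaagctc
Cdk1: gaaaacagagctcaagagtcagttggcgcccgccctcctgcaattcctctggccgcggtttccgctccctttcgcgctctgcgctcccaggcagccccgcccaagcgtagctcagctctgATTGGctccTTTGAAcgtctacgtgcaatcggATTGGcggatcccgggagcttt

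In the 250 bases before the start, Ube2c held 1 homology-region and 6 CCAAT matches and Birc5 held neither. Over all 27025 promoters of the table, 17.4% held a homology-region match, 34.5% a CCAAT match and 6.21% both. A match is a description of letters and not a site of binding.

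The 4 genes chose the cells, and their values are a description. Members had 3 to 68 UMIs of them, with a median of 8. Birc5 had a UMI in 45 of 47 and 24 of 25 cycling macrophage-lineage cells, Top2a in 35 and 19, Ube2c in 34 and 20, and Cdk1 in 24 and 16. Mki67, which encodes the proliferation antigen Ki-67 and played no part in the choice, had a UMI in 103 of the 185 members (55.7%): 43 of 72 macrophage-lineage, 18 of 26 cDC1-lineage and 42 of 87 other cells. Just inside the threshold, 27 cells had 3 UMIs of the 4 genes and 25.9% of them had a Mki67 UMI. Just outside it, 41 cells had 2 UMIs and 12.2% had one. The shares were 42.9% of the 21 cells with 4 UMIs, 63.5% of the 137 with 5 or more, and 2.86% of cells with none.

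Members had more UMIs than resting cells of their lineage. Median UMIs were 12114 and 11802 in cycling against 5167 and 6741 in resting macrophage-lineage cells, 13474 and 17058 against 8482 and 11097 in the cDC1 lineage, and 8662.5 and 12682 against 5749 and 7361 in other cells. A gate set in UMIs is passed more readily by deeper cells, so later differences were repeated among cells of 10000 or more UMIs. That minimum does not make depth equal, and it leaves fewer cells, such as 108 and 106 resting macrophage-lineage cells. A call lost there can thus come with fewer cells too, and how much of a difference comes with depth was not tested.

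By marker genes fixed for each cell type, the lineages carried the genes that their names imply. Macrophage markers such as Csf1r, Apoe and Mertk took 1.56% and 2.55% of all UMIs of cycling macrophage-lineage cells, against 0.235% and 0.0966% in cycling cDC1-lineage and 0.178% and 0.15% in cycling other cells. The cDC1 markers Irf8, Batf3, Naaa and others took 0.361% and 0.465% in the cDC1 lineage. Per cell over both libraries, their median was 0.434% in the cDC1 lineage, 0.0892% in the macrophage lineage and 0.113% in other cells. Single other cells reached 0.686%, so the classes overlapped. Other cycling cells were a mixture. Markers of monocytes took 0.569% and 0.517% of their UMIs, and markers of type 2 conventional dendritic cells (cDC2) 0.0987% and 0.224%. In 38 of 46 and 39 of 41 of them the conventional DC and cDC2 lists together had 3 or more UMIs. Among resting other cells these were 415 of 565 and 352 of 398. Mast cell, endothelial, erythroid, NK, T and B cell lists had at most 9 UMIs in any cycling class of a library.

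**Figure D1:**
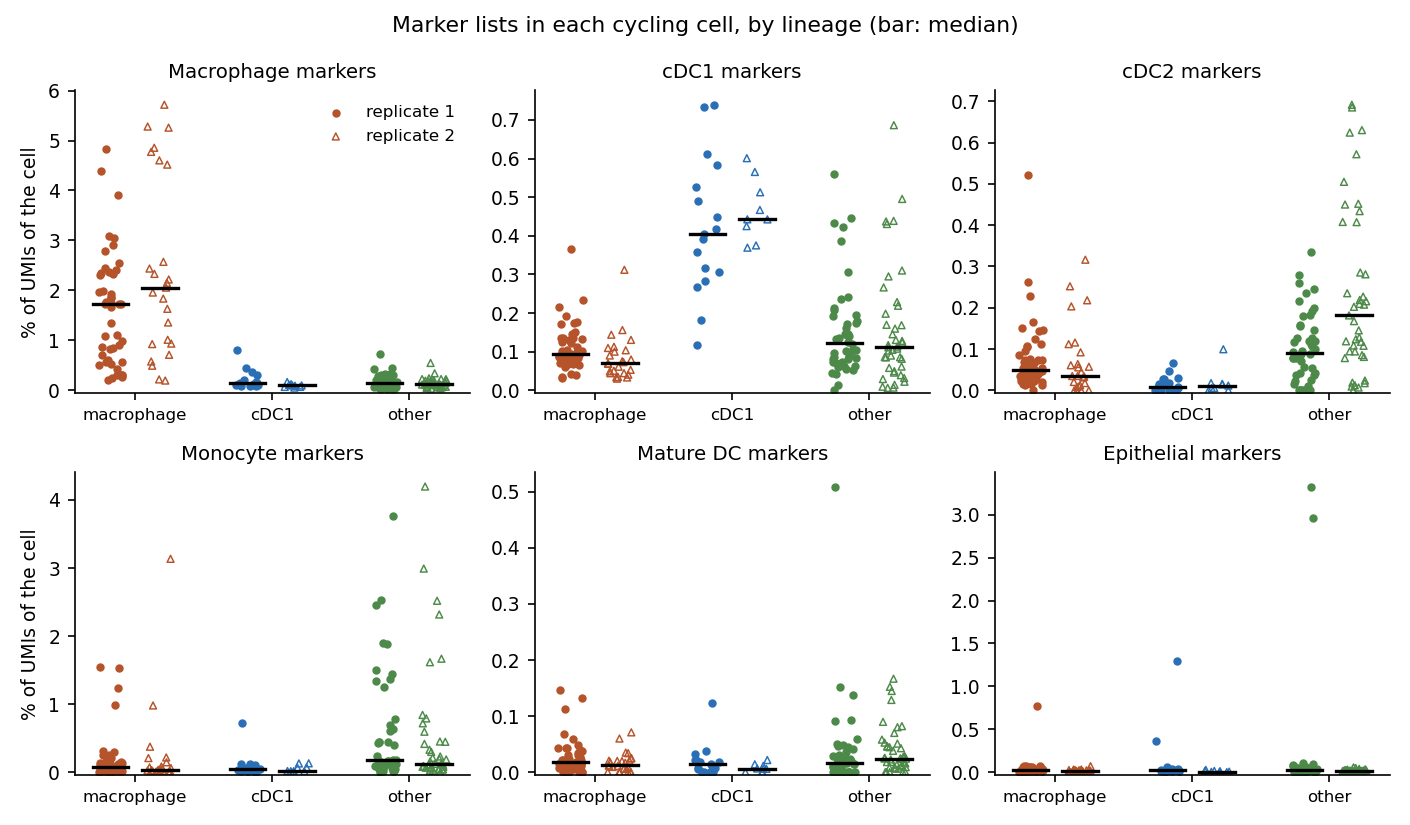
Percent of each cycling cell's UMIs from marker lists (y axis), by lineage (x axis and colour), with 1 point per cell. Filled circles are replicate 1, open triangles replicate 2, and a bar marks the median of a class in a library. Over both libraries, macrophage markers had a median of 1.75% in macrophage-lineage cells and 0.142% in other cells. Monocyte markers reached 4.20% in single other cells.

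A small number of members went against their label. Of the 185, 11 had 3 or more UMIs of 4 epithelial genes. Among these, 2 other cells of replicate 1 had 239 and 228 epithelial UMIs with 3 and 4 UMIs of the leukocyte genes, at the edge of the gate. Of the cDC1 lineage, 2 cells of replicate 1 had 77 and 72 epithelial UMIs, and the former had the most UMIs of any member (51390), 107 C1q UMIs and 0.506% fibroblast UMIs. Comparisons that rest on these cells are given with and without all 11. The 6 members with the highest doublet scores were 5 macrophage-lineage cells and 1 other cell.

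The share of cells that passed the cycling rule differed most between the cDC1 and the macrophage lineage. It was 25.8% (exact Clopper-Pearson 95% interval 15.8 to 38.0) and 18.8% (8.95 to 32.6) in the cDC1 lineage, a mean of 22.3% ± 4.96 (SD, n = 2). In the macrophage lineage it was 4.24% (3.13 to 5.6) and 4.19% (2.73 to 6.13), a mean of 4.22% ± 0.0334. Other cells had 7.53% (5.56 to 9.91) and 9.34% (6.79 to 12.5), a mean of 8.43% ± 1.28. In each library the intervals of the cDC1 and macrophage lineages did not overlap, while those of the cDC1 lineage and other cells overlapped in replicate 2. The rule sets these shares, so they have no test, and the intervals cover counting error only.

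The order of the 3 classes was the same in each library when the cycling rule alone was thinned to equal depth. Lineages were set from all UMIs there, so the cDC1 gate, itself a count of UMIs, was not thinned. Only 1 and 0 cDC1-lineage cells had 2000 to under 5000 UMIs, against 509 and 156 macrophage-lineage cells. How much of the order comes with that gate was not tested. After each cell was thinned to 5000 UMIs for the cycling rule, 4.51% and 3.64% of macrophage-lineage, 15.4% and 18.8% of cDC1-lineage and 6.48% and 8.68% of other cells passed. This left out 509 and 156 macrophage-lineage, 1 and 0 cDC1-lineage and 210 and 82 other cells with fewer UMIs. At 2000 UMIs, which left out none, the shares were 1.08% and 2.01%, 6.06% and 6.25%, and 2.95% and 3.42%, and the intervals of the cDC1 and macrophage lineages overlapped in both libraries (1.68 to 14.8 against 0.561 to 1.88, and 1.31 to 17.2 against 1.04 to 3.49). Among cells of 10000 or more UMIs the shares were 20% and 13.1% of macrophage-lineage, 51.9% and 21.9% of cDC1-lineage and 28.6% and 30.9% of other cells, so there the other cells of replicate 2 exceeded the cDC1 lineage.

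**Figure D2:**
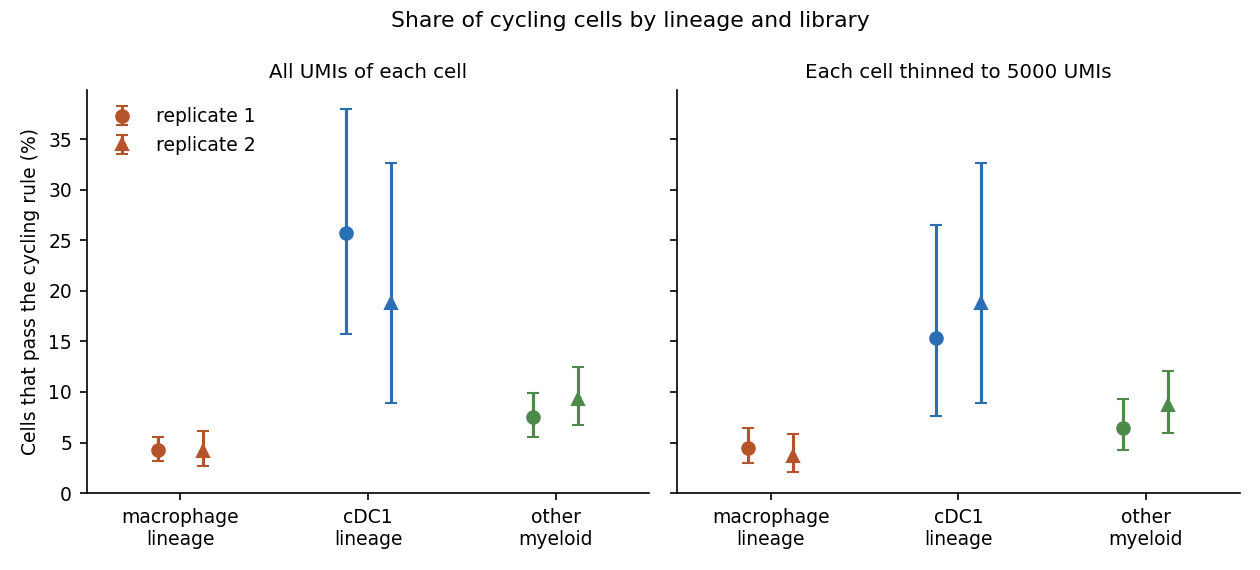
Percent of cells that passed the cycling rule (y axis) by lineage (x axis), with 1 point per library, for all UMIs and for cells thinned to 5000 UMIs. Bars are exact 95% intervals. The cDC1 lineage is highest in each panel, with 25.8% and 18.8% at full depth and 15.4% and 18.8% at 5000 UMIs.

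Members of all 3 lineages held mainly transcripts of G2 and mitosis, as a gate on 4 genes of those stages would select. Of the UMIs of the DNA replication and S phase list and the G2 and mitosis list together, the S phase list gave 20.2% and 22.2% in the macrophage lineage, 22.2% and 19.4% in the cDC1 lineage and 22.8% and 19.5% in other cells. The 95% intervals of the 3 lineages overlapped within each library. Resting cells, with few UMIs of either list, had 32.5% to 42.7%. The S phase list exceeded the G2 and mitosis list in 6 of 185 members: 3 macrophage-lineage, 1 cDC1-lineage and 2 other cells. Per cell, the G2 and mitosis list took a median of 0.433% and 0.396% of UMIs in the macrophage lineage, 0.460% and 0.577% in the cDC1 lineage and 0.407% and 0.408% in other cells.

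**Figure D3:**
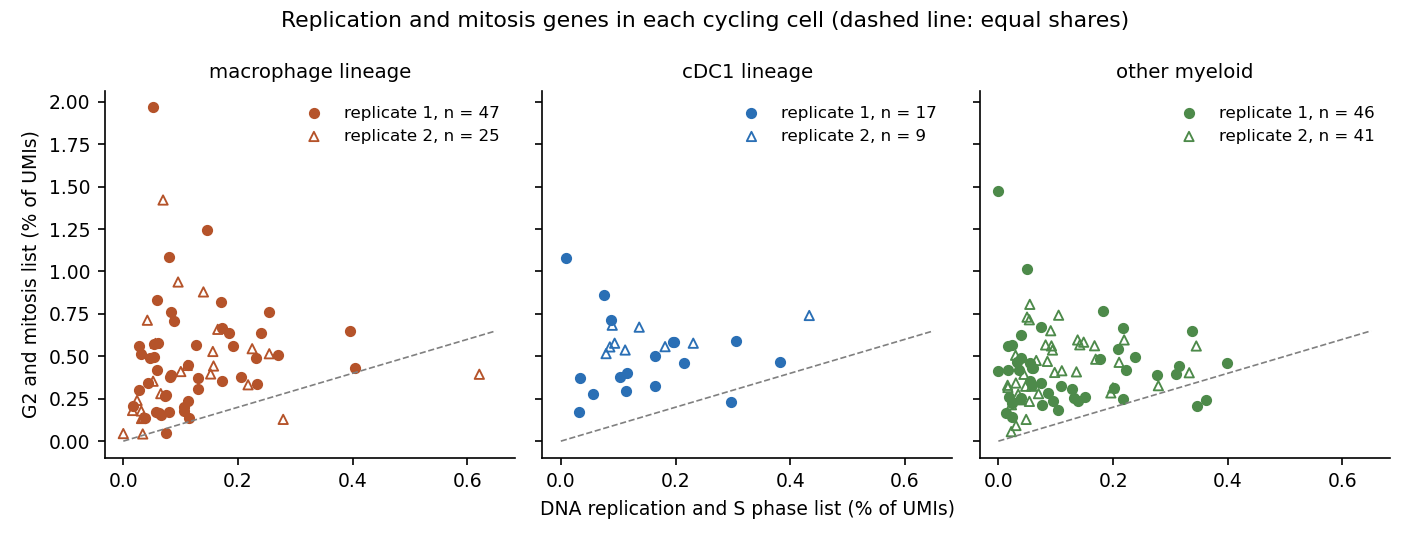
Percent of each cycling cell's UMIs from the DNA replication and S phase list (x axis) and the G2 and mitosis list (y axis), 1 point per cell, by lineage and library. All but 6 of the 185 cells lie on or above the dashed line of equal shares.

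Cycling and resting cells of each lineage were next compared over UMI sums per library (edgeR's quasi-likelihood test with library as a block, Benjamini-Hochberg adjusted p under 0.05). The 14 genes of the gates were left out. Because the classes were set in the same cells by genes of division, rises of cell cycle genes follow from the choice. Their values and counts of calls are given as a description, not as a test. The sums of the lineages differ in cell number, so these counts are not compared between lineages. For other genes the p-values say how steady a difference between the chosen cells was over both libraries. Levels are CPM, the UMIs of a gene per 1000000 UMIs of the sum, TMM-scaled within a fit, with no correction for gene length since only 3′ ends were counted.

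In the macrophage lineage, 288 genes rose and 114 fell among 5660 tested (5.09% and 2.01%, 7.1% in all), with the same sign in both libraries for all 402. In the cDC1 lineage 111 rose and 50 fell among 5635 (1.97% and 0.887%, 2.86% in all), 145 of the 161 with the same sign in both. In other cells 261 rose and 132 fell among 5660 (4.61% and 2.33%, 6.94% in all), all 393 with the same sign. The median log2 fold over all genes tested was -0.03, -0.02 and -0.05. The cycling cDC1 cells of replicate 2 numbered 9, under the minimum of 10 set for a sum, and the minimum was lowered to 5 for results on this lineage after the cell counts were seen. Among cells of 10000 or more UMIs, 95 genes rose and 3 fell in the macrophage lineage, 43 and 5 in the cDC1 lineage, and 107 and 87 in other cells, with fewer cells in each sum, so most calls of lower genes were not made at that depth in the macrophage and cDC1 lineages. Without the library block, 190 genes rose and 18 fell in the macrophage lineage, 71 and 15 in the cDC1 lineage, and 184 and 43 in other cells. After thinning to 2000 UMIs the median over all genes moved to -0.40 in the macrophage lineage and -0.50 in other cells, and the calls split into 49 higher and 193 lower, and 24 and 262.

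Of the G2 and mitosis list, 39 of 40 genes tested were called higher in macrophage-lineage cells (median log2 fold 4.86), 26 of 40 in the cDC1 lineage and 39 of 40 in other cells (median 4.22). In the cDC1 lineage, 16 of the 40 had no UMI in 1 of the groups. With these set at a floor of 3 UMIs over a group the median was 3.18. Mki67 had 108 and 92.5 CPM in cycling against 3.56 and 6.55 in resting macrophage-lineage cells (log2 fold 4.40 ± 0.30, SE), and 62.0 and 77.4 against 7.55 and 9.47 in other cells (3.03 ± 0.31). In the cDC1 lineage Mki67 had 42 UMIs in cycling and 1 in resting cells, a ratio of summed CPM of 84.8 with a counting interval of 14.4 to 3427. Cdca3, which helps trigger entry into mitosis, had 65 UMIs in cycling and 0 in resting cDC1-lineage cells, at least 43.7-fold higher, and Ccna2 (cyclin A2) had 37 and 0, at least 24.9-fold higher. Hmmr, a spindle protein, had 37 and 0 UMIs in cycling and resting other cells, at least 81.3-fold higher. In the macrophage lineage Nusap1, which bundles spindle microtubules, had 61.3 and 72.3 against 0.808 and 0.504 CPM, and Ccnb1 (cyclin B1) 64.5 and 60.7 against 1.29 and 0.504. Cycling and resting levels of Mki67, Nusap1 and Ccnb1 did not overlap.

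Of the S phase list, 15 of 22 were called higher in the macrophage lineage (median 1.59), 4 of 23 in the cDC1 lineage (median 1.56, or 1.52 with 1 gene at the floor) and 19 of 22 in other cells (median 2.10). Without cells with epithelial UMIs, 9 of 22 were called in the cDC1 lineage. Mcm5, a subunit of the helicase that opens replication origins, had 27.4 and 26.0 against 8.41 and 9.58 CPM in macrophage-lineage cells (1.59 ± 0.34), 66.4 and 77.2 against 22.7 and 15.9 in the cDC1 lineage (1.87 ± 0.41) and 56.0 and 48.1 against 9.70 and 12.5 in other cells (2.23 ± 0.28). Of the genes for nucleotide synthesis, 10 of 21 were called higher in the macrophage lineage, 5 of 21 in the cDC1 lineage and 10 of 21 in other cells, and none lower. Rrm2, the subunit of ribonucleotide reductase that is made in S phase, had 75.8 and 101.2 against 2.91 and 2.77 CPM, 136.4 and 135.1 against 7.56 and 2.65, and 96.0 and 73.9 against 1.08 and 1.69, in the same order (log2 folds 4.88 ± 0.32, 4.69 ± 0.48 and 5.90 ± 0.37). Tk1 (thymidine kinase), Tyms (thymidylate synthase), Rrm1 and Dut were also called higher in all 3 lineages.

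Genes that control entry into the cycle moved less. Of the cyclin D, CDK, inhibitor and E2F regulators, 4 of 17 rose in the macrophage lineage (Mxd3, E2f8, Cdkn2c and Cdkn2d), 3 of 17 in other cells (Mxd3, Cdkn2d and Cdk4) and 0 of 19 in the cDC1 lineage. Mxd3 is a repressor of the Myc family and E2f8 a repressor among the E2F factors. Ccnd1 (cyclin D1) had 69.3 and 40.5 CPM in cycling against 67.1 and 44.9 in resting macrophage-lineage cells, a log2 fold of 0.00 ± 0.27 whose groups overlapped. In other cells Ccnd2 (cyclin D2) was lower at 50.02 and 24.1 against 109 and 67.0 CPM (-1.27 ± 0.28, adjusted p = 0.0191, edgeR), a call that was lost at 10000 or more UMIs (adjusted p = 0.307). Btg2, which restrains growth, was lower in the cDC1 lineage at 297 and 264 against 539 and 767 CPM (-1.21 ± 0.25, adjusted p = 0.0207), and without cells with epithelial UMIs its adjusted p was 0.0515. The p21 gene Cdkn1a was not called in any lineage, with log2 folds of -0.38 ± 0.25, 1.01 ± 0.36 and 0.04 ± 0.25.

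Across lineages, 81 genes were called higher in all 3, which is 28.1% of those in the macrophage lineage, 73.0% of those in the cDC1 lineage and 31.0% of those in other cells. Of these, 31 are in the cell cycle lists and 50 outside them. Stmn1 (stathmin, which unbinds microtubules) had 10.9 and 13.3 UMIs per cycling against 0.218 and 0.350 per resting macrophage-lineage cell, 15.4 and 20.2 against 0.531 and 0.359 in the cDC1 lineage, and 9.30 and 13.8 against 0.338 and 0.271 in other cells. Its log2 folds of CPM were 4.35 ± 0.23, 4.32 ± 0.28 and 4.36 ± 0.23. The tubulin genes Tuba1b and Tubb5 rose by log2 folds of 2.02 ± 0.16 and 2.10 ± 0.20 in the macrophage lineage, 2.98 ± 0.26 and 2.85 ± 0.28 in the cDC1 lineage, and 2.45 ± 0.16 and 2.45 ± 0.20 in other cells. The chromatin genes Hmgb1 and Ptma, and Ran with Ranbp1 of nuclear transport, were also called higher in all 3. Outside division, Prdx4, a peroxide-reducing enzyme of the endoplasmic reticulum, had log2 folds of 1.39 ± 0.17, 1.58 ± 0.28 and 1.23 ± 0.18 (adjusted p = 0.00049, 0.00869 and 0.00175, edgeR). At 10000 or more UMIs it was called in the macrophage lineage and not in the cDC1 lineage (1.76, adjusted p = 0.0756) or in other cells (0.71, adjusted p = 0.240).

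The promoters of the genes called higher in all 3 lineages held the 2 motifs more often than promoters at large did. These genes were called between classes set by 4 mitotic genes, and 31 of the 81 are in the cell cycle lists. A larger share of motifs of G2 and mitosis thus follows in part from the choice. Of the 60 of 81 matched in RefSeq, 36.7% held a homology-region match, 61.7% a CCAAT match and 30% both. Among the 4383 matched genes tested in the macrophage lineage these were 12.4%, 36.3% and 4.68%. In the G2 and mitosis list (40 of 50 matched) they were 40%, 80% and 37.5%, in the S phase list (25 of 32) 20%, 60% and 16%, and in genes lower in cycling macrophage-lineage cells (80 of 114) 13.8%, 33.8% and 5%.

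**Figure D4:**
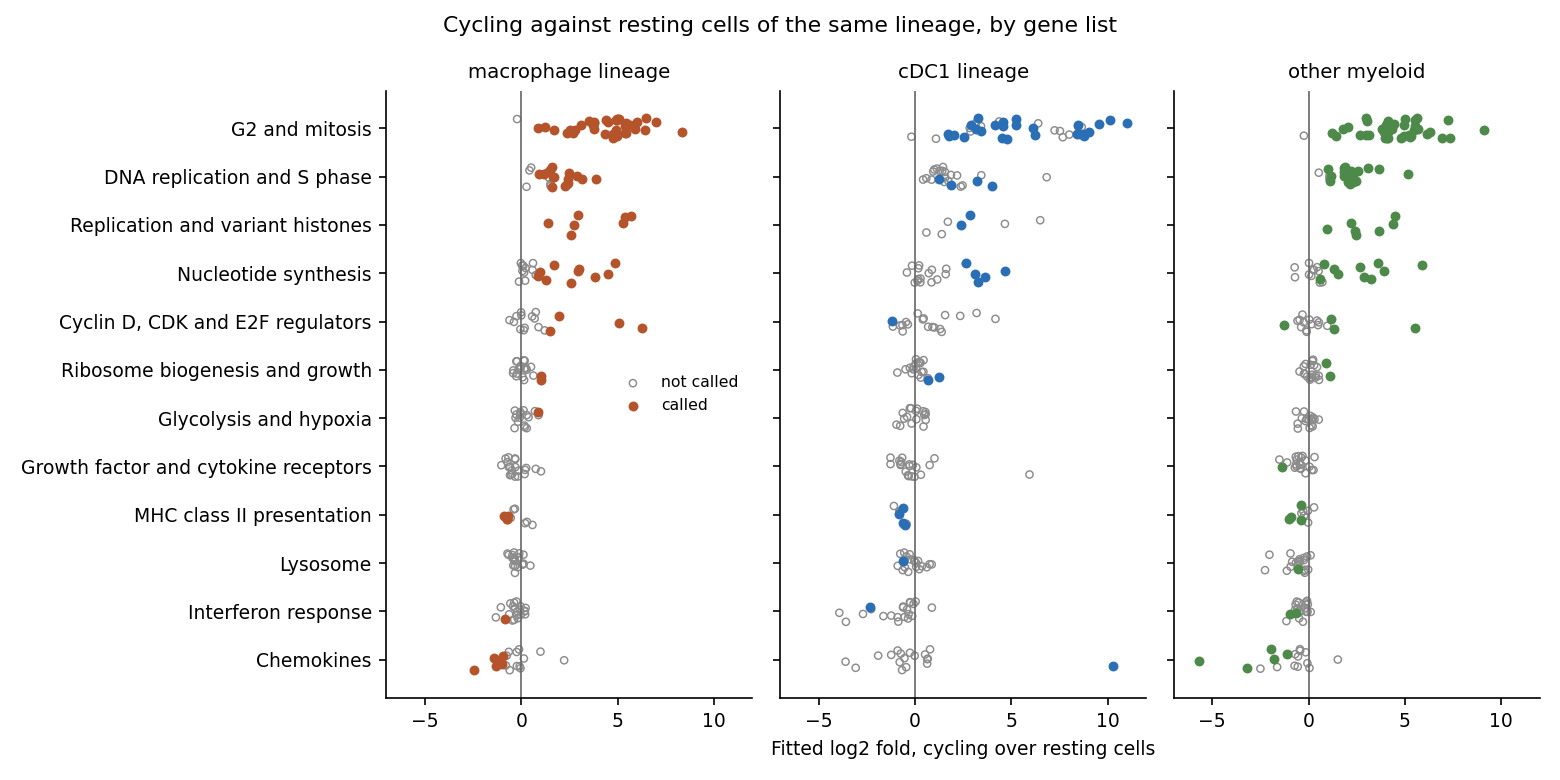
Fitted log2 fold of cycling over resting cells (x axis) for each gene of 12 lists (y axis), by lineage; filled points were called and open points were not. Division lists lie to the right, receptors and glycolysis around 0, and the folds of genes without a UMI in 1 group are fitted values and no bound.

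Beside the division genes, cycling macrophage-lineage cells had lower levels of some chemokines and of the anti-inflammatory cytokine Il10. Of 18 chemokines 6 fell (Ccl8, Ccl4, Pf4, Ccl3, Ccl7 and Ccl5) and 0 rose, and 12 were not called (median -0.62). Ccl8, which attracts monocytes, had 1130 and 153 CPM in cycling against 4480 and 1388 in resting cells (-2.43 ± 0.30, adjusted p = 0.000385, edgeR), so that cycling cells of replicate 1 lay close to resting cells of replicate 2. Il10 had 30.6 and 5.78 against 205 and 106 CPM (-2.98 ± 0.33, adjusted p = 0.000209), and its UMIs were found in 8 of 47 and 2 of 25 cycling cells. Hmox1, which degrades haem, had 79.0 and 78.1 against 401 and 160 CPM (-1.82 ± 0.26, adjusted p = 0.00121). The CPM ranges of Il10 and Hmox1 did not overlap. Per cell, Hmox1 had a mean of 1.04 and 1.08 UMIs in cycling against 2.34 and 1.11 in resting cells, nearly equal in replicate 2. Ccl8 had 14.9 and 2.12 UMIs per cycling against 26.1 and 9.65 per resting cell, and Il10 0.404 and 0.08 against 1.19 and 0.736. Ccl8 was found in 63.8% and 28% of cycling against 58.3% and 31.9% of resting cells. Of 8 resident-like macrophage markers, 3 fell (Ccl8, Gas6 and Pf4) and 0 rose. Folr2, of the same resident-like list, had 40.3 and 101.2 against 223 and 77.9 CPM and was not called. Ear2, a monocyte marker, rose from 95.7 and 122 to 240.2 and 278 CPM (1.26 ± 0.19, adjusted p = 0.00201).

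Depth and C1q differed between these classes too. Cycling macrophage-lineage cells had a median of 0.808% and 1.23% of UMIs from C1q against 1.29% and 1.52% in resting ones, and 16 of 72 against 113 of 1632 had 0.3 to 0.5%. In barcodes of at most 50 UMIs, which hold free RNA, C1q was 0.398% and 0.493%. In cells with 20 or more UMIs of the 4 epithelial genes its median was 0.0077% and 0.0059%. Among cells of 10000 or more UMIs, Ccl8 was -1.01 (adjusted p = 0.579, edgeR), Il10 -2.74 (0.0527) and Hmox1 -1.71 (0.0166). With a C1q minimum of 0.5%, Ear2 was 0.62 and no longer called (adjusted p = 0.279), while Ccl8 (-2.36), Il10 (-2.70) and Hmox1 (-2.00) stayed called. Without the library block the adjusted p of Ccl8 was 0.337 and of Hmox1 0.0692. The part that C1q, depth or free RNA takes in the remaining difference was not tested.

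Genes of MHC class II, which show antigen to T cells, took a smaller share of transcripts in cycling cells. Of 10 genes 4 fell and 0 rose in each lineage (medians -0.47, -0.71 and -0.32). Cd74, the chaperone of class II molecules, had 4991 and 6404 CPM in cycling against 8174 and 13329 in resting macrophage-lineage cells (-0.88 ± 0.11, adjusted p = 0.000507, edgeR). It had 5262 and 7392 against 9131 and 13345 in the cDC1 lineage (-0.82 ± 0.12, adjusted p = 0.00226) and 4509 and 8011 against 5969 and 10640 in other cells (-0.41 ± 0.11, adjusted p = 0.0499). The level was lower in cycling cells within each library. H2-Eb1, a class II beta chain, was the other gene called lower in all 3 lineages, at -0.75 ± 0.11, -0.63 ± 0.12 and -0.41 ± 0.11.

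Counted per cell, most of these class II levels were higher in cycling cells, and Cd74 of replicate 2 in the macrophage and cDC1 lineages was not. In other cells Cd74 had a mean of 49.0 and 113.7 UMIs per cycling against 39.2 and 79.0 per resting cell. Cycling macrophage-lineage cells had a mean of 65.9 and 88.6 Cd74 UMIs against 47.7 and 92.6 in resting cells, and H2-Ab1 had 111 and 129 against 72.4 and 113. In the cDC1 lineage Cd74 had 88.5 and 127.7 against 73.9 and 128.9. In that lineage H2-Aa had 183 and 230 UMIs per cycling cell against 132 and 180 per resting cell, and in other cells 91.2 and 168 against 66.3 and 106. Among cells of 10000 or more UMIs no gene of the list was called in any lineage, and the median was -0.26, -0.63 and 0.25. None was called without the library block either. By CPM, the other genes called lower in all 3 lineages were Cd14, Malat1 and Eef1a1. Together with Cd74 and H2-Eb1 these 5 are 4.39%, 10% and 3.79% of the genes called lower in the macrophage lineage, the cDC1 lineage and other cells. Per cell, Eef1a1 and Malat1 were higher in cycling cells of each lineage and library. Eef1a1 had 53.7 and 59.3 UMIs per cycling against 28.5 and 39.2 per resting macrophage-lineage cell. Cd14 went both ways per cell, with 4.53 and 2.89 against 3.29 and 7.67 in the cDC1 lineage.

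**Figure D5:**
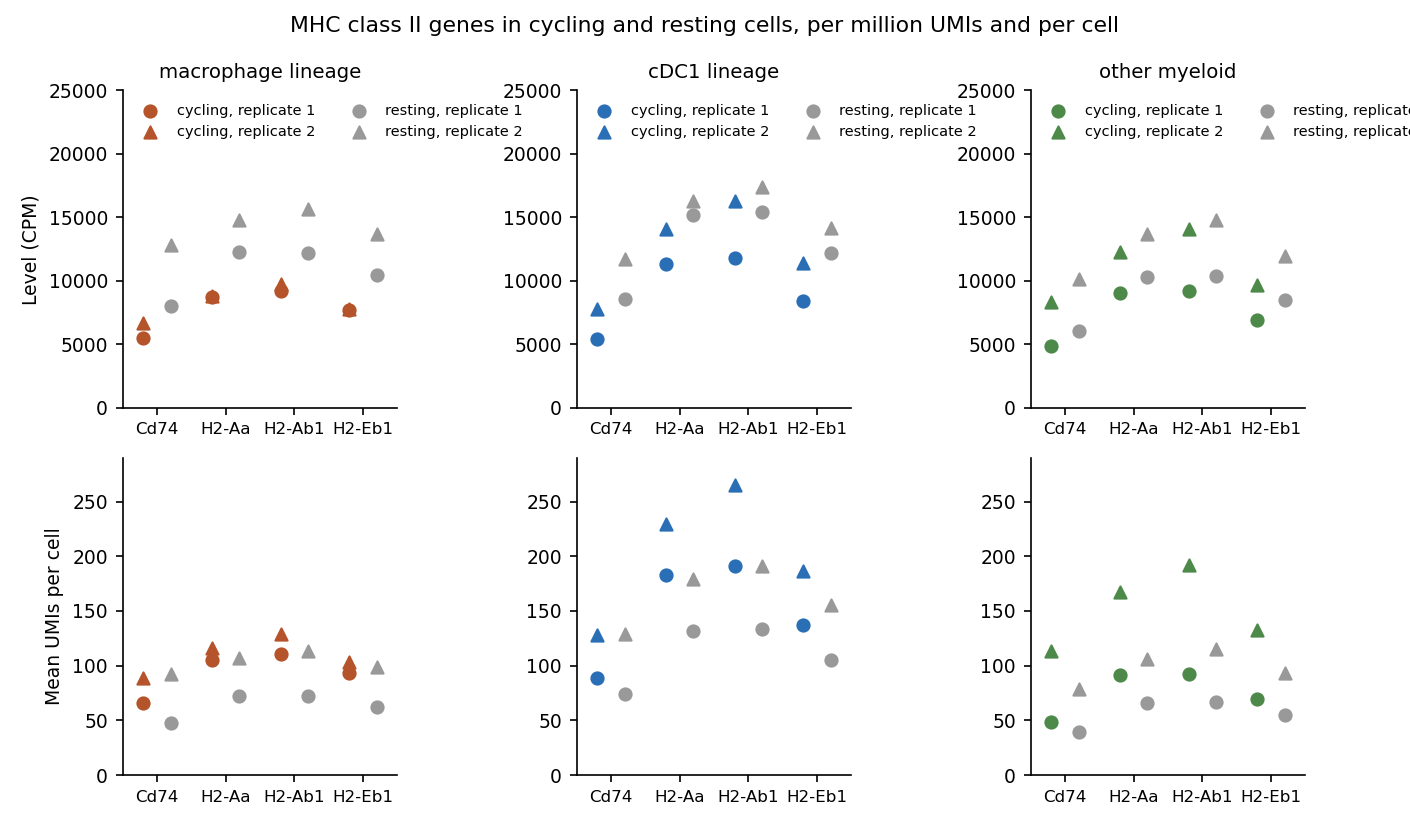
MHC class II genes in cycling and resting cells of each lineage, as CPM before TMM scaling (top) and mean UMIs per cell (bottom), 1 point per library. Cd74 was lower in cycling cells by CPM in each library, while per cell it ranged from 65.9 and 88.6 in cycling to 47.7 and 92.6 in resting macrophage-lineage cells.

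In the cDC1 lineage further falls were found among genes of several roles. Of 9 costimulation and checkpoint ligands 2 fell, Havcr2 (-1.13 ± 0.28) and Cd86 (-0.998 ± 0.21). Isg15, an interferon-induced ubiquitin-like protein, had 28.0 and 6.43 against 108 and 84.9 CPM (-2.31 ± 0.45, adjusted p = 0.0162, edgeR). Hhex, a transcription factor, had 6.99 and 12.9 against 58.0 and 106 CPM (-3.14 ± 0.69, adjusted p = 0.0272), and Cd37, a tetraspanin, 21.0 and 38.6 against 95.8 and 141 (-2.08 ± 0.36, adjusted p = 0.00687). Rgs1, which dampens chemokine receptor signals, had 192 and 57.9 against 461 and 406 (-1.73 ± 0.32, adjusted p = 0.0116). Cycling and resting levels of these 4 genes did not overlap. Of the cDC1 markers Ppt1, a lysosomal enzyme, was lower and 11 of 12 were not called. Without cells with epithelial UMIs, the adjusted p was 0.0555 for Hhex and 0.0558 for Ppt1. At 10000 or more UMIs Isg15 (adjusted p = 0.161) and Hhex (0.0847) were not called, and without the library block Isg15 (0.0514) and Rgs1 (0.108) were not. Flt3 had 49.0 and 109 CPM in cycling against 65.5 and 127 in resting cells (-0.36 ± 0.44, not called).

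Called rises of 4 of 6 fibroblast genes and of Krt14 in the cDC1 lineage came from replicate 1 alone. Fibroblast markers took 0.106% and 0.000681% of the UMIs of cycling cDC1-lineage cells in the 2 libraries, and epithelial markers 0.237% and 0.00817%. Without the cells with epithelial UMIs none of these genes was called, and 131 genes rose and 36 fell, of which 109 were among the 161 above; 2 of 10 class II genes were then lower.

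Among other cells, the cycling ones had fewer transcripts of fibroblasts and of some genes of mature dendritic cells, and the class is a mixture on both sides. Ccl22, a chemokine of mature dendritic cells, had 6.00 and 5.16 CPM in cycling against 217 and 334 in resting cells (-5.68 ± 0.82, adjusted p = 0.00139, edgeR). Of 9 mature DC genes 3 fell (Ccl22, Il4i1 and Tmem123), and the list took 0.0467% and 0.0388% against 0.129% and 0.155% of UMIs. Ccl5 had 98.0 and 29.2 against 708 and 383 CPM (-3.17 ± 0.27, adjusted p = 2.49e-05). Of 8 monocyte markers only Ly6c2 was called lower (median -0.22). It had 2.00 and 6.88 against 130 and 94.4 CPM (-4.74 ± 1.08, adjusted p = 0.0226), and was not called at 10000 or more UMIs (-0.61) or by DESeq2. At that depth Ccl5 was -0.90 (adjusted p = 0.710, edgeR) and Ccl22 -6.13 (adjusted p = 0.105), and neither was called. All 6 fibroblast genes were lower: Col3a1 had 6.00 and 1.72 against 622 and 108 CPM (-6.42 ± 0.46, adjusted p = 8.85e-06), and the list took 0.00389% and 0.00161% against 0.168% and 0.040%. Restricted to other cells with 3 or more UMIs of the conventional DC and cDC2 lists, 238 genes rose and 125 fell, 327 of them among the 393 above, and the 6 fibroblast genes stayed lower. Naaa, a cDC1 marker, rose from 211 and 315 to 418 and 550 CPM (0.89 ± 0.22, adjusted p = 0.0329), and at 10000 or more UMIs its adjusted p was 0.166. Beyond it no list of a myeloid cell type had a called rise in cycling other cells.

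Of the receptors for growth factors and cytokines, 0 of 21 were called in the macrophage and in the cDC1 lineage and 1 of 21 (Tgfbr2, lower) in other cells. Over all genes tested 7.1%, 2.86% and 6.94% were called, so for 21 genes these counts are near the background. Csf1r had 339 and 359 CPM in cycling against 456 and 520 in resting macrophage-lineage cells (-0.49 ± 0.31, adjusted p = 0.404, edgeR). Its levels were lower in cycling cells in both libraries, and the test did not pass. Csf2rb, the shared chain of the GM-CSF, IL-3 and IL-5 receptors, had 152 and 150 against 122 and 133 CPM (0.25 ± 0.18). Itgax, which encodes the CD11c of the selection, had 140.3 and 133 against 114 and 149 CPM (0.08 ± 0.23).

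Cycling cells of both lineages were then compared directly. Both passed the same gate on 4 mitotic genes, so closeness in genes of mitosis follows from the choice, and differences between lineages at rest enter the comparison too. Of 5635 genes, 397 were higher in the macrophage and 314 in the cDC1 lineage (7.05% and 5.57%, 12.6% in all), 680 of 711 with the same sign in both libraries, and the median over all genes was 0.02. Of 89 genes of the cell cycle lists, 2 were higher in the macrophage lineage (Cks2 and Mdm2) and 5 in the cDC1 lineage (Mcm5, Hmgb2, H2afx, H2afz and Ccnd3). The G2 and mitosis list had a median of 0.08 and the S phase list of -0.23. Mki67 had 108 and 90.6 CPM in the macrophage against 90.9 and 103 in the cDC1 lineage (0.08 ± 0.31, adjusted p = 0.92, edgeR), and the ranges overlapped.

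H2afz, a histone variant, had 3264 and 3014 CPM in cycling macrophage-lineage and 6199 and 8216 in cycling cDC1-lineage cells (-1.18 ± 0.15, adjusted p = 0.000378). Resting cells differed as well, with 1307 and 1151 against 3995 and 5538 CPM in their fits. Mcm5 had 27.3 and 25.5 CPM in cycling macrophage-lineage against 66.4 and 77.2 CPM (-1.40 ± 0.36, adjusted p = 0.0234) and Ccnd3 (cyclin D3) 32.1 and 11.3 against 59.4 and 187 (-2.12 ± 0.55, adjusted p = 0.0228). These also differed at rest in the same direction, Mcm5 with 8.41 and 9.58 against 22.7 and 15.9 CPM and Ccnd3 with 14.7 and 11.3 against 65.5 and 95.5. The ranges of these 3 genes did not overlap, and at 10000 or more UMIs Mcm5 and Ccnd3 kept their direction without passing the test (adjusted p = 0.185 and 0.115). Of genes of ribosome biogenesis, 4 of 20 were higher in the cDC1 lineage and 0 in the macrophage lineage, Npm1 (nucleophosmin) among them at 933.6 and 926 against 611 and 560.3 CPM (-0.66 ± 0.14, adjusted p = 0.00758), a call lost at 10000 or more UMIs (adjusted p = 0.0537).

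Cycling cells kept the contrast between lineages in genes that the gates did not use, although such genes follow the gates and are given as a description. Csf1r had 337 and 351 CPM in cycling macrophage-lineage against 28.0 and 0 in cycling cDC1-lineage cells (4.26 ± 0.66), and Flt3 9.64 and 0 against 49.0 and 109 (-3.51 ± 0.72). C5ar1, the receptor for complement C5a, had 159 UMIs in the macrophage and 0 in the cDC1 lineage, at least 25.0-fold higher, and Ccr1, a receptor for inflammatory chemokines, 86 and 0, at least 13.5-fold higher. Of 22 lysosome genes 16 were higher in the macrophage lineage, with Ctsd (cathepsin D) at 1411 and 3931 against 224 and 19.3 CPM. Of 18 chemokines 13 were higher there, and of 15 scavenging and phagocytic receptors 10. Itgax was higher at 139.8 and 130 against 55.9 and 32.2 CPM (1.52 ± 0.39). In the cDC1 lineage 8 of 10 class II genes were higher, such as H2-Ab1 at 11339 and 15370 against 8395 and 9121 CPM (-0.59 ± 0.12), and the protease Ctss alone was higher in macrophage-lineage cells. At 10000 or more UMIs 1 of the 10 was higher in the cDC1 lineage, and without the library block 2 were. Btla, an inhibitory receptor, had 59.4 and 148 against 9.64 and 0 CPM. The 5 fibroblast and 3 epithelial genes higher in the cDC1 lineage rested on the cells with epithelial UMIs.

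Whether the step from resting to cycling differed between the macrophage and the cDC1 lineage was tested gene by gene as an interaction. None of 5635 genes (0%) passed by edgeR, and 486 had an unadjusted p under 0.05. The smallest adjusted p was 0.187, and DESeq2 called 2. With 26 cycling cDC1-lineage cells this does not show that the lineages respond alike.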

How the data were processed

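Whole-number UMI counts per gene and barcode were deposited by the authors for 737280 barcodes and 27998 genes per library, with no filter on cells. They come from 10x Genomics 3′ libraries (version 2 kit, per the labels' protocols), processed with Cell Ranger 2.2.0 on mm10, per the submitters' processing notes. The sources used here give neither alignment options nor an annotation release. The 2 libraries are replicates of 1 group.

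The members and all gene lists were chosen with earlier results of these data known. Counts were summed per library, lineage and cycling or resting state (12 sums) and fitted with edgeR 4.0.16 (R 4.3.3; filterByExpr, TMM, glmQLFit, glmQLFTest), with library as a block. Sums with the same replicate number come from the same library, so the number pairs them. The macrophage-lineage and other-cell comparisons use the 10 sums of at least 10 cells, and results on cycling cDC1-lineage cells all 12. Fold changes of genes with 0 UMIs in a group use a floor of 3 UMIs over that group, and shares have exact Clopper-Pearson 95% intervals. Doublets were scored with Scrublet (scanpy 1.11.5) and kept, and leaving out the highest scores (0.8% per 1000 cells) was an alternative. DESeq2 1.42.0, other gates, thinning and filters were alternatives.

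Named genes were up to 2 per list whose called change was largest and had 1 sign in both libraries, then among called genes of at least 50 CPM the 4 that rose most and the 4 that fell most, and a fixed set (Mki67, Mcm5, Ccnd1, Ccnd2, Ccnd3, Cdkn1a, Csf1r, Csf2rb, Flt3, Itgax, Ccr2, Folr2 and Cd274). Genes called in all 3 lineages, class II genes, Ear2, Ccl5, Naaa, Npm1, H2afz, Havcr2, Cd86 and Ctsd were named after their values were seen.

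On simulated counts of this design, 56 of 97 genes changed 2-fold and 85 of 98 changed 4-fold were recovered for the macrophage lineage, with 5 unchanged genes called. For the cDC1 lineage these were 19 of 97, 64 of 95 and 8, for other cells 49 of 96, 94 of 97 and 6, and between cycling lineages 32 of 95, 71 of 95 and 4.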

Additional observations from a re-analysis of the deposited data

Results flagged for a closer look

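The mitochondrial limit kept out some cycling cells. In replicate 2, 5 of 37 myeloid barcodes with 2000 or more UMIs and over 10% mitochondrial UMIs passed the cycling rule (13.5%, exact 95% interval 4.54 to 28.8). Counts over 3 were flagged, a cutoff that is not a test. In replicate 1 these were 3 of 53. Of the 5, 3 were macrophage-lineage and 2 other cells.

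Free RNA held the transcripts that define the macrophage gate. In barcodes of at most 50 UMIs, C1qa, C1qb and C1qc gave 0.398% of UMIs in replicate 1 and 0.493% in replicate 2, at or above the gate of 0.3%. Resting other cells had a median of 0.0161% and 0.0123%, which the gate on C1q holds below 0.3%. Cells with 20 or more UMIs of the 4 epithelial genes, chosen without a C1q gate, had a median of 0.0077% (108 cells) and 0.0059% (39 cells). How much C1q of a macrophage-lineage cell came from free RNA was not tested.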

How the results depend on the processing

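Of the 402, 161, 393 and 711 genes called in the macrophage lineage, the cDC1 lineage, other cells and between cycling lineages, other settings called the following. Among cells of 10000 or more UMIs, chosen after the data were seen, 98, 48, 194 and 432 were called. With no filter on low counts, 708, 389 and 708 were called in the first 3, and the median over all genes moved to -0.17 in the macrophage lineage and -0.25 in other cells. Without the replicate block, 208, 86 and 227 were called. Thinning to 2000 UMIs gave 242 in the macrophage lineage (49 higher, 193 lower) and no value for the cDC1 lineage, whose cells were then too few. A minimum of 5 UMIs of the cycling genes gave 86 in the cDC1 lineage. The interaction, 0 in the fit reported, gave 1 with resting cells of 0 cycling UMIs, 2 by DESeq2 and 133 without the filter. The cause of these changes was not tested.

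The macrophage-lineage share of 4.22% became 3.09% and 5.53% at 5 and 2 UMIs of the cycling genes, 1.63% with cells thinned to 2000 UMIs before all gates, 4.48% at 3000 UMIs, 4.32% and 3.64% at C1q gates of 0.2% and 0.5%, 4.02% without the highest doublet scores and 4.14% without cells with epithelial UMIs. At 10000 UMIs it was 16.6%, and with the cycling rule alone thinned to 2000 and 5000 UMIs it was 1.55% and 4.07%. The cDC1 share of 22.3% became 36.9% at 10000 UMIs, and 6.16% and 17.1% with the cycling rule thinned to 2000 and 5000 UMIs. With cells thinned before all gates, only 5 and 4 cells passed the cDC1 gate, and 1 and 0 of them the cycling rule. That mean of 10.0% (SD 14.1, exact intervals 0.505 to 71.6 and 0 to 60.2) is too uncertain to compare. The share of other cells, 8.43%, became 6.36% and 10.05% at 5 and 2 UMIs, 2.99% thinned, 29.7% at 10000 UMIs and 3.18% with the cycling rule thinned to 2000. Leaving out a replicate gave 4.19% to 4.24%, 18.8% to 25.8% and 7.53% to 9.34%.

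Of 70 gene results named in the text, 60 were called. In other cells Cd74 and H2-Eb1 reversed at 10000 UMIs (0.20 and 0.18), where 25 further calls were lost, and 14 were lost without the block. Each library alone kept the direction of all 60. List genes and largest changes were named only with 1 sign in both libraries, so this follows in part from the choice. Over all called genes the sign was shared by 402 of 402, 145 of 161, 393 of 393 and 680 of 711, in the order above. With 1 library no spread remains, so there is no test of calls there. The cDC1 lineage rests on 26 cycling cells.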
